A study of Mus musculus with 35 samples.

Results

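The 8 genes described here form the signalling module around the cAMP response element-binding protein CREB. They are Creb1, Atf1 and Crem (the CREB family of transcription factors), Crtc2 and Crtc3 (CREB-regulated coactivators), Sik1 and Sik3 (salt-inducible kinases) and Per1 (a period clock gene that CREB is known to induce). They were taken by name from the 48709 genes listed in each count table, through their Ensembl identifiers, and all 8 passed the filter on low counts that kept 13819 genes. The libraries came from OT-I CTLs, which are CD8+ cytotoxic T lymphocytes of mice that carry a transgenic T cell receptor for an ovalbumin peptide. The cells had been primed through CD3 and CD28 with antibodies, then grown in IL-2, before the experiment. They were sampled at the start (time 0, 0 h) or after 24 h in low-glucose DMEM set to pH 7.4, pH 7 or pH 6.6, either without IL-2 or with 200 IU/mL mouse IL-2. These 7 groups are called time 0, pH 7.4, pH 7, pH 6.6, pH 7.4 + IL-2, pH 7 + IL-2 and pH 6.6 + IL-2, and each held 5 biological replicates numbered alike in every group. Strain background beyond the transgene, age and sex of the animals were not given in the labels, dead cells had been removed on Ficoll in every group, and each library is a bulk culture.

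As background, CREB1, ATF1 and CREM are closely related leucine zipper proteins that bind the cAMP response element (CRE) as dimers. Kinases such as protein kinase A phosphorylate them, which recruits the acetyltransferases CBP and p300, the products of Crebbp and Ep300. Crem is unusual in that an internal promoter gives ICER, a short repressor that lacks the activation domain and is itself induced by CREB. CRTC proteins are held in the cytoplasm by 14-3-3 proteins while SIKs phosphorylate them, and enter the nucleus to bind CREB when SIK activity is low or calcineurin removes the phosphate. SIK1, itself a product of a CREB target gene, therefore forms a negative feedback loop, and SIK3 is a broadly expressed relative. PER1 is a repressor of the circadian clock whose gene is induced both by CREB and, through E-box elements, by CLOCK and BMAL1. In T cells CREB and CREM are known for their parts in cytokine gene control, and ICER for repression of the Il2 promoter.

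Counts assigned to genes ranged from 16721319 to 34033340 per library (median 24730020 over the 35 libraries). Levels are given as CPM, the count divided by the TMM-scaled library size and set to a total common to all libraries, as mean ± SD of 5 libraries unless single libraries are listed, and changes as log2 fold changes with their SE from one edgeR quasi-likelihood fit, with Benjamini-Hochberg adjustment over the 13819 genes. Of the 7 CD8 CTL markers, the T cell receptor and co-receptor genes were high throughout, with Cd8a at 674 to 1596 CPM and Cd3e at 374 to 631 CPM, while the granule genes varied widely, Gzmb from 36.7 to 9010 CPM and Prf1 from 11.1 to 686 CPM. The sum of the 7 was 9160 to 11842 CPM in pH 7.4 + IL-2, 3127 to 4314 CPM in pH 6.6 + IL-2, 2692 to 3199 CPM in pH 7.4 and 2474 to 2820 CPM in pH 6.6. Defining markers of other cells were mostly at or near 0, with maxima over the 35 libraries of 2.48 CPM for Cd4, 0.286 for Lyz2, 0.196 for Csf1r and 0.0694 for Ncr1, and Ms4a1 and Hbb-bs were at 0 in every library. The B cell marker Cd79b, however, ranged over 1.02 to 5.91 CPM, and the myeloid marker Itgam reached 3.29 CPM. The summed level of the 5 myeloid markers, carried mostly by the lysosomal gene Cd68, was nevertheless 5.11 to 10.8 CPM in pH 7.4 + IL-2 and 16.5 to 30.9 CPM in pH 6.6 + IL-2, and the 2 of 5 that passed the filter were both called higher there. The sum of the NK cell markers, carried by Klrb1c, was 43.0 to 45.8 CPM and 19.3 to 33.2 CPM in the same groups (1 of 2 tested, called lower). In that comparison Cd4 was called higher (log2 fold change 1.34), Cd79b, the 1 of 4 B cell markers tested, lower (-0.37), and 3 of 7 CTL markers higher and 2 lower, while neither red cell marker was tested. At pH 6.6 against pH 7.4 without IL-2, 1 of 7 CTL markers was called higher and 5 lower (median log2 fold change -0.44), Klrb1c was called lower (-1.62), 1 of the 2 myeloid markers tested was called higher and 1 lower, and neither Cd4 (0.82) nor Cd79b (-0.02) was called. The NK cell sum there ranged over 20.6 to 40.8 CPM at pH 7.4 and 8.27 to 12.1 CPM at pH 6.6, and the myeloid sum over 10.3 to 19.3 CPM and 17.8 to 32.98 CPM. The part of these in the results below was not tested. In bulk cultures, fewer cells that express a gene and less of its RNA per cell cannot be told apart, and CPM says nothing of the total RNA per cell.

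RefSeq start site windows on GRCm38.p6, from 250 bases before to 50 bases after a start, were at hand for 5 of the members (Creb1, Atf1, Crtc3, Sik3 and Per1). Both strands were searched for the full CRE (TGACGTCA), the CRE core (TGACG, which is also part of the full element) and the E-box (CACGTG), which occur in 1.79%, 20.8% and 7.15% of the 32851 windows of the genome. None of the 6 windows of these members holds a full CRE. Per1, the member that rose most at pH 6.6 with IL-2, has a CRE core in both of its start windows, and the first of them also holds an E-box. Sik3 has 3 CRE cores and 1 E-box, which overlaps the middle core, and Atf1 has 1 of each, while the Creb1 and Crtc3 windows hold none of these motifs. The windows of Per1 and Sik3 are shown 5′ to 3′ on the gene's strand, with each CRE core in capitals. Of these 5 members, Per1 changed most at pH 6.6 with IL-2, and Sik3 has the most CRE cores.
Per1, first start, chr11:69098699-69098998, plus strand: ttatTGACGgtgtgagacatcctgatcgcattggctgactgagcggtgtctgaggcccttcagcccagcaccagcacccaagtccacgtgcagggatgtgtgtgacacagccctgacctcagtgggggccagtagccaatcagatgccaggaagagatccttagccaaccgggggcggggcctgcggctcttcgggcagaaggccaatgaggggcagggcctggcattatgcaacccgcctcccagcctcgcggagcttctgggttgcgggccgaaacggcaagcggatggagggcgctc
Per1, second start, chr11:69099902-69100201, plus strand: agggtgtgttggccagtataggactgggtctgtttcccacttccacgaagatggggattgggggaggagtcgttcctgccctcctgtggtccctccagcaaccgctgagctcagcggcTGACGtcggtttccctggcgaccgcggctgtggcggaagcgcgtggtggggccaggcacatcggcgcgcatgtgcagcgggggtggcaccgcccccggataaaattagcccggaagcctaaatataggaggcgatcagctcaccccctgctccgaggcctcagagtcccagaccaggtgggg
Sik3, chr9:46012570-46012869, plus strand: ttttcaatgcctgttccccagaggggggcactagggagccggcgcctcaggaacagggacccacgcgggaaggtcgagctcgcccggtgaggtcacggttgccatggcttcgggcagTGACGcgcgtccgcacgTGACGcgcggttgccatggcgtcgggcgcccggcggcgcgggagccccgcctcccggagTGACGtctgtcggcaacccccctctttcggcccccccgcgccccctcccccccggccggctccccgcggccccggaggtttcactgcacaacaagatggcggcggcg
The CRE core begins 246 bases before the first Per1 start and 132 bases before the second, and those of Sik3 begin 133, 116 and 57 bases before its start. A match to these letters is a description of the sequence and not of binding.

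On GRCm38 the members lie on 8 chromosomes, namely Creb1 at chr1:64532645-64604548, Crtc2 at chr3:90254163-90264125, Crtc3 at chr7:80586627-80688877, Sik3 at chr9:46012820-46224194, Per1 at chr11:69095217-69109960, Atf1 at chr15:100227819-100261244, Sik1 at chr17:31844250-31855804 and Crem at chr18:3266048-3337748. A count is the sum over all exons of a gene, so ICER and the full-length Crem transcripts could not be separated. Of the exon bases of Crem, 8.01% are overlapped by Gm6225 on the opposite strand, and the kit was stranded but the strand setting of the counting was not given. For Atf1, 87.9% of the 50-base windows of its exons occur in no other annotated gene's transcript, against 94.3% for Crem, 99.8% for Creb1 and at least 99.9% for the other 5 genes, so Atf1 is the member whose reads could most often match elsewhere.

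The first question was how these genes stood after 24 h at pH 6.6 with IL-2, the cytokine on which CTLs depend for growth. Per1, Sik1 and Crem, which are CREB target genes, were 4.72-fold, 2.71-fold and 2.26-fold higher in pH 6.6 + IL-2 than in pH 7.4 + IL-2. The coactivators Crtc3 and Crtc2, the kinase Sik3 and the factor Creb1 were 1.68-fold, 1.63-fold, 1.51-fold and 1.32-fold higher, and Atf1 was 1.46-fold lower. All 8 members passed the threshold (adjusted p under 0.05), 7 higher and 1 lower, in the same direction in 5 of 5 replicate pairs and with no overlap between the groups' libraries. The background was high, since 76.3% of all genes tested passed in this comparison, 35.4% higher and 40.9% lower, and the libraries of the groups did not overlap for 59.2% of them, so neither count of members is in itself a result about them. The median log2 fold change of the 8 members, which were chosen with earlier results of these data known, was 0.72, against -0.07 over all genes tested, and 34.8% of all genes tested had a log2 fold change of at least 1 in size, as did 3 of the members.

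**Figure D1:**
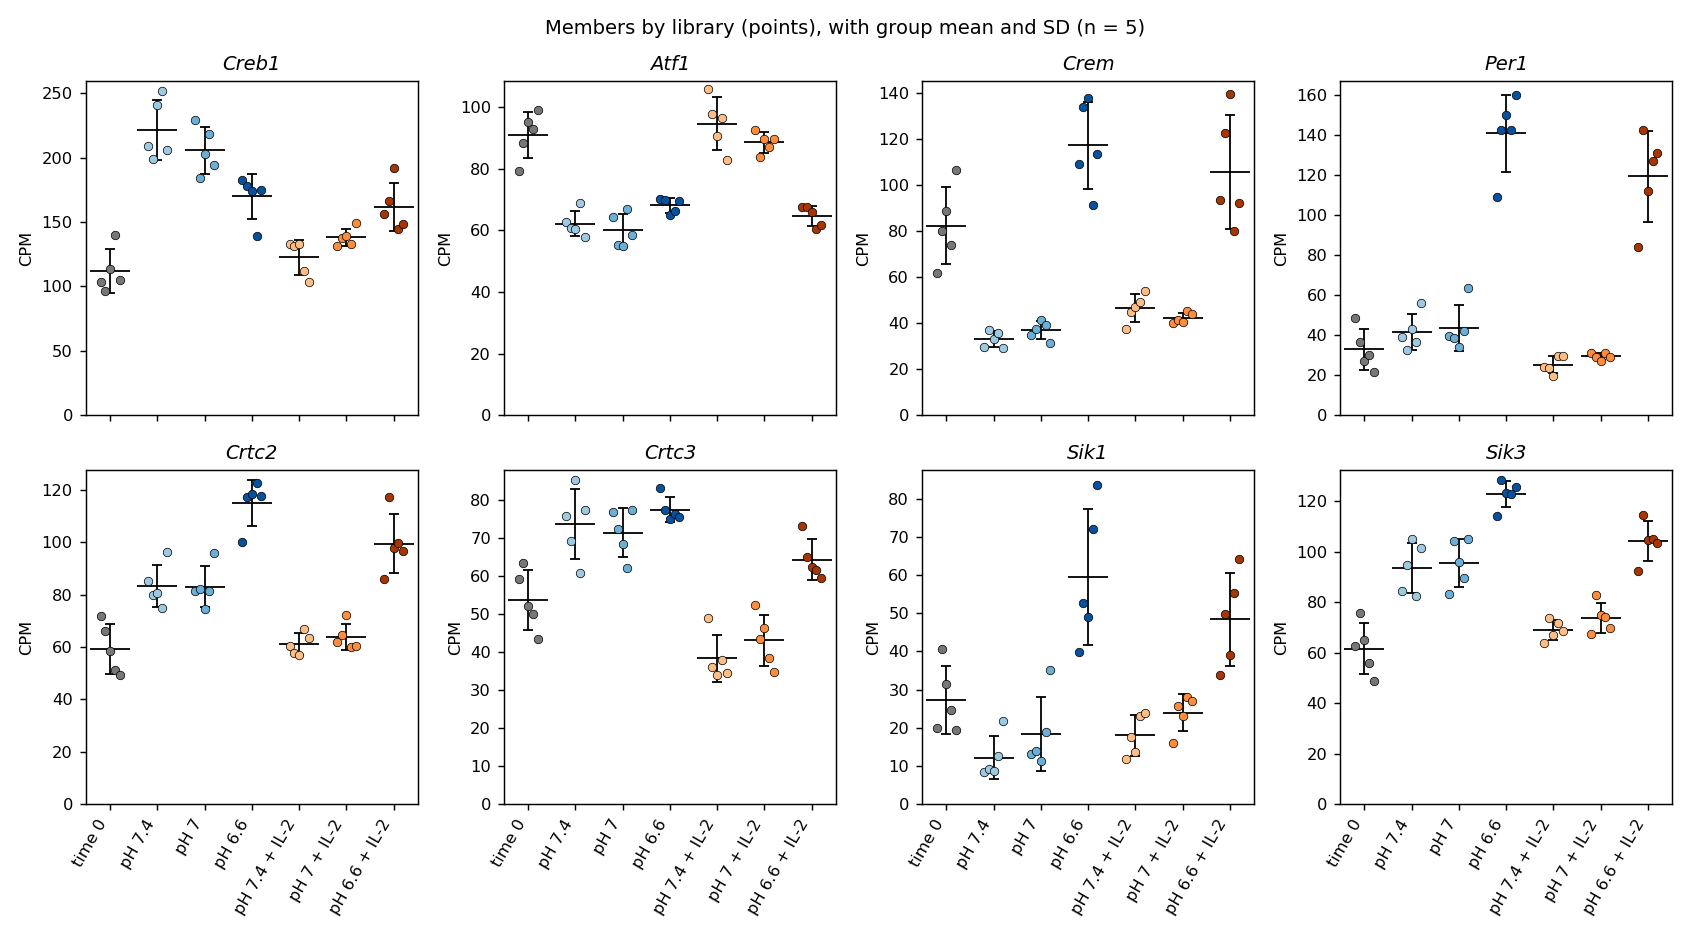
Level of each member (vertical axis, CPM, starting at 0) in the 35 libraries, by group (horizontal axis), where points are single libraries in order of replicate number, bars are group means and whiskers are SD (n = 5). Crem, Sik1 and Per1 stand highest in both pH 6.6 groups, Creb1 stands highest in pH 7.4 without IL-2, and Atf1 is high at time 0, in pH 7.4 + IL-2 and in pH 7 + IL-2.

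Among the factors, Crem moved most. In pH 7.4 + IL-2 the 5 libraries, in order of replicate number, had 37.6, 44.9, 47.2, 49.2 and 53.9 CPM of Crem, and in pH 6.6 + IL-2 they had 93.8, 123, 139.8, 80.1 and 92.4 CPM. Replicate 4 was the lowest acidic library and was still above the highest neutral one (log2 fold change 1.17, SE 0.12, adjusted p = 1.15e-10). Without IL-2, the libraries had 29.8, 37.3, 33.1, 35.8 and 29.4 CPM at pH 7.4 and 109, 134, 138, 91.4 and 114 CPM at pH 6.6. These groups did not overlap either, and the rise was larger by the interaction test given below (log2 fold change 1.82, SE 0.12, adjusted p = 2.38e-14), from a lower neutral level to an acidic level of 117 ± 19.1 CPM, against 106 ± 24.6 CPM with IL-2.

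Creb1, which encodes CREB itself, moved in opposite directions with and without IL-2. With IL-2 its libraries had 133, 131, 133, 112 and 104 CPM at pH 7.4 and 156, 166, 192, 145 and 149 CPM at pH 6.6 (log2 fold change 0.40, SE 0.10, adjusted p = 0.000373). Without IL-2 they had 209, 199, 241, 252 and 206 CPM at pH 7.4 and 183, 178, 174, 139 and 175 CPM at pH 6.6 (log2 fold change -0.38, SE 0.10, adjusted p = 0.000809). Creb1 was therefore lowest of these 4 groups in pH 7.4 + IL-2 and highest in pH 7.4 without the cytokine, and both acidic groups lay between them, at 161 ± 18.8 and 169.9 ± 17.4 CPM with overlapping libraries. Atf1, whose product dimerises with CREB1, was highest of these 4 groups in pH 7.4 + IL-2. Its libraries had 106, 97.5, 90.4, 96.2 and 82.8 CPM in pH 7.4 + IL-2 and 67.5, 67.5, 66.1, 60.5 and 61.6 CPM in pH 6.6 + IL-2, without overlap (log2 fold change -0.55, SE 0.07, adjusted p = 2.01e-08). Without IL-2 they had 62.7, 60.7, 60.6, 68.7 and 57.8 CPM at pH 7.4 and 70.2, 69.9, 65.0, 66.1 and 69.6 CPM at pH 6.6, which overlapped, and the difference did not pass the threshold (log2 fold change 0.14, SE 0.07, adjusted p = 0.0886, with passing values of 0.18 under RLE normalization, under DESeq2 and without replicate 4, and -0.02 with total counts only).

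The coactivators both rose in acid with IL-2, and Crtc2 rose without it as well. Crtc2 ranged over 57.0 to 66.9 CPM in pH 7.4 + IL-2 and 86.1 to 117 CPM in pH 6.6 + IL-2 (log2 fold change 0.70, SE 0.10, adjusted p = 6.24e-08). Crtc3 ranged over 34.03 to 49.0 CPM and 59.4 to 73.1 CPM in the same groups (log2 fold change 0.75, SE 0.09, adjusted p = 3.63e-09). Neither gene's groups overlapped. Without IL-2, Crtc2 was at 74.9 to 96.3 CPM at pH 7.4 and at 99.97 to 123 CPM at pH 6.6, without overlap (log2 fold change 0.47, SE 0.09, adjusted p = 6.61e-05). Crtc3 ranged over 60.9 to 85.3 and 75.1 to 83.1 CPM and its difference did not pass the threshold (log2 fold change 0.07, SE 0.09, adjusted p = 0.473), with a fold of 1.05 (interval of 1.96 SE, 0.934 to 1.18) and a log2 value below 0 under upper quartile normalization (-0.05) and total counts only (-0.08).

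Sik1, the inducible kinase, rose with a wide spread between libraries. With IL-2 its libraries had 11.9, 17.5, 13.6, 23.1 and 23.8 CPM at pH 7.4 and 33.7, 49.8, 39.2, 55.2 and 64.2 CPM at pH 6.6. Replicate 1 was the lowest and replicate 5 the highest library of both groups, which did not overlap (log2 fold change 1.44, SE 0.19, adjusted p = 7.88e-08). Without IL-2 they had 8.30, 9.15, 8.81, 12.7 and 21.7 CPM at pH 7.4 and 39.9, 52.6, 49.1, 71.9 and 83.7 CPM at pH 6.6. The order of the replicates from lowest to highest (1, 3, 2, 4 and 5) was the same in these 4 groups, and the change was the largest of any member in this comparison (log2 fold change 2.32, SE 0.20, adjusted p = 2.16e-11). Sik3 was steadier, at 63.8 to 73.9 CPM in pH 7.4 + IL-2 and 92.4 to 115 CPM in pH 6.6 + IL-2 (log2 fold change 0.59, SE 0.07, adjusted p = 1.39e-08). Without IL-2 it ranged over 82.7 to 105 CPM at pH 7.4 and 114 to 129 CPM at pH 6.6, again without overlap (log2 fold change 0.39, SE 0.07, adjusted p = 2.45e-05).

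Per1 was the member with the largest change in the presence of IL-2. Its libraries had 24.5, 23.7, 19.7, 29.9 and 29.5 CPM in pH 7.4 + IL-2 and 84.0, 143, 112, 127 and 131 CPM in pH 6.6 + IL-2. Replicate 1 was the lowest acidic library and still far above every neutral one (log2 fold change 2.24, SE 0.18, adjusted p = 6.8e-13). Without IL-2 they had 39.4, 32.9, 43.1, 36.8 and 56.2 CPM at pH 7.4 and 109, 143, 150.1, 143 and 160.1 CPM at pH 6.6, which did not overlap (log2 fold change 1.77, SE 0.17, adjusted p = 2.3e-10). The acidic level was 119 ± 22.6 CPM with IL-2 and 141 ± 19.1 CPM without it, and the replicate pairs were all lower with IL-2, a difference that did not pass the threshold (log2 fold change -0.24, SE 0.17, adjusted p = 0.308).

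Over the members as a whole, 6 of 8 passed the threshold at pH 6.6 against pH 7.4 without IL-2, 5 higher (Crem, Sik1, Per1, Crtc2 and Sik3) and 1 lower (Creb1), with a median log2 fold change of 0.43 against -0.03 over all genes tested. Of all genes tested, 67.0% passed in this comparison, 31.6% higher and 35.4% lower. The libraries of both groups were free of overlap for 6 members and for 47.4% of all genes tested. Among the genes that passed, 47.2% were higher, against 34.7% when libraries were scaled by total counts only. Whether the pH effect itself depended on IL-2 was tested as an interaction, which 5 of the 8 members passed, against 67.0% of all genes tested. Of all genes tested, 34.3% had a more positive log2 change in the presence of IL-2 and 32.8% a less positive one. The effect of acid was more positive with IL-2 for Creb1, by 0.78 on the log2 scale (SE 0.13, adjusted p = 6.83e-06), and for Crtc3, by 0.68 (SE 0.12, adjusted p = 1.55e-05). It was less positive with IL-2 for Sik1, with a difference of -0.88 (SE 0.27, adjusted p = 0.00571, and 0.0681 without the replicate block), Atf1, with -0.68 (SE 0.10, adjusted p = 3.59e-07), and Crem, with -0.65 (SE 0.17, adjusted p = 0.00102). Per1, Crtc2 and Sik3 had differences of 0.47, 0.23 and 0.20, which did not pass (adjusted p = 0.0799, 0.121 and 0.0934). These 3 passed as well under upper quartile normalization, with total counts only (where the median of all genes shifted by 0.26 and 0.23) and without replicate 1, so that all 8 members did. Sik3 and Per1 also passed with at least 10 counts in every library (adjusted p = 0.0342 and 0.0491). The same 2 passed in a fit to the groups compared alone (adjusted p = 0.0424 and 0.0164), and Sik3 passed without replicate 2 (adjusted p = 0.0363). Of the genes that passed the interaction, 51.1% had a more positive change with IL-2, against 64.4% under upper quartile normalization and 62.8% with total counts only.

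**Figure D2:**
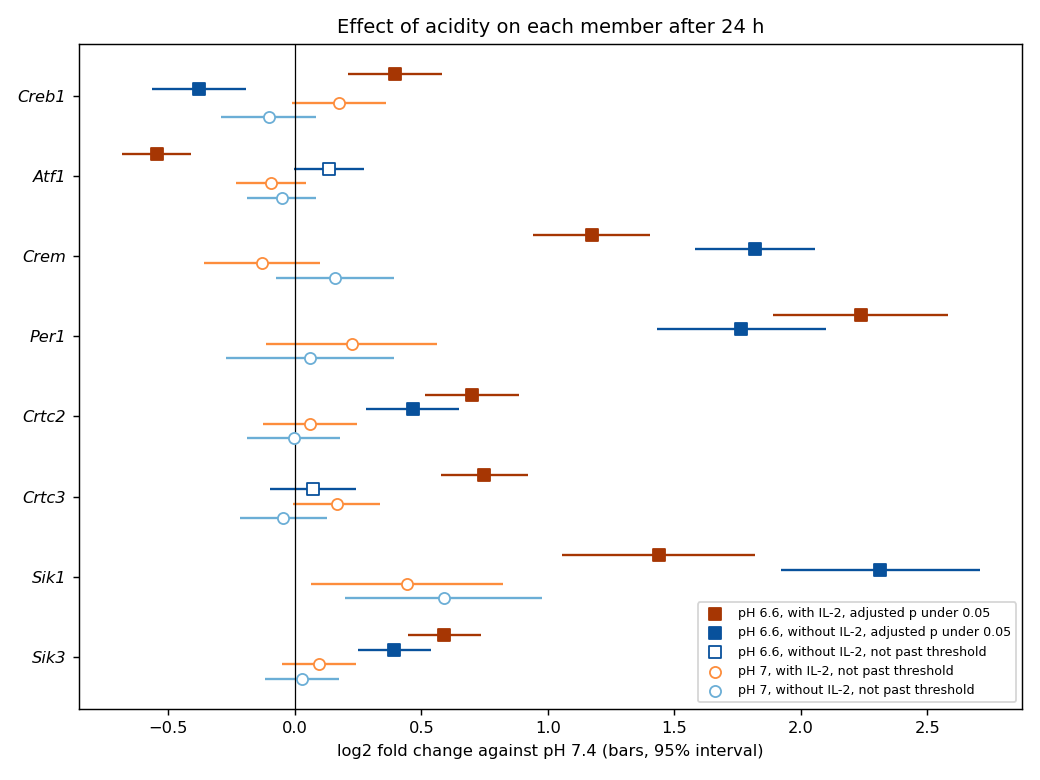
Log2 fold change of each member (vertical axis) against pH 7.4 after 24 h (horizontal axis), for pH 6.6 (squares) and pH 7 (circles) with IL-2 (orange shades) or without it (blue shades), where bars are 95% intervals (1.96 standard errors on each side) and filled symbols passed an adjusted p of 0.05. The filled squares of Creb1 lie on opposite sides of 0 (0.40 with IL-2 and -0.38 without), and none of the circles is filled.

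The milder acidity of pH 7 gave small values. With IL-2, 0 of 8 members passed at pH 7 against pH 7.4, where 19% of all genes tested did (9.15% higher and 9.83% lower). The groups overlapped for all 8 members and were free of overlap for 13.2% of all genes tested. At an unadjusted p under 0.05 there was 1 member, Sik1, and DESeq2 called 0. Of the genes that passed, 48.2% were higher, against 63.6% under upper quartile normalization and 65.7% with total counts only. Sik1 had 16.1, 25.7, 22.99, 28.04 and 27.03 CPM in pH 7 + IL-2, higher than its pH 7.4 + IL-2 partner in 5 of 5 pairs but overlapping with that group (log2 fold change 0.44, SE 0.19, adjusted p = 0.11). In a fit to the groups compared alone, Sik1 (0.46, adjusted p = 0.00117) and Per1 (0.25, adjusted p = 0.0218) passed, and Sik1 also passed without replicate 5. The other 7 members lay between -0.13 (Crem) and 0.22 (Per1), and Crtc3 and Sik3 were higher in 5 of 5 pairs, at 0.17 and 0.10.

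Without IL-2, 0 of 8 members passed at pH 7, against 1.68% of all genes tested (1.36% higher and 0.318% lower). The groups overlapped again for all 8 members, and were free of overlap for 1.45% of all genes tested. At an unadjusted p under 0.05 there was again 1 member, Sik1, and DESeq2 called 0. The Sik1 libraries had 13.2, 13.9, 11.2, 18.9 and 35.1 CPM at pH 7 without IL-2, and each was above its pH 7.4 partner (log2 fold change 0.59, SE 0.20, adjusted p = 0.179). In the fit to the groups compared alone Sik1 passed, at 0.58 with an adjusted p of 6.01e-05. The other members lay between -0.10 (Creb1) and 0.16 (Crem). No member passed the interaction of pH 7 with IL-2, by edgeR or DESeq2, and 1 (Creb1, 0.28, SE 0.13) had an unadjusted p under 0.05, against 4.79% of all genes tested that passed (2.19% more positive with IL-2 and 2.6% less). Of the genes that passed, 45.8% were more positive with IL-2, against 61.0% under upper quartile normalization and 60.8% with total counts only. Per1 and Crem, which rose most at pH 6.6 apart from Sik1, were thus at 27.04 to 31.2 and 40.2 to 45.4 CPM in pH 7 + IL-2, against 84.0 to 143 and 80.1 to 139.8 CPM in pH 6.6 + IL-2.

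The effect of IL-2 itself was compared at each pH. These comparisons share libraries with those of pH above, so their values are set side by side only. At pH 7.4 all 8 members passed, 3 higher and 5 lower with IL-2, where 80.4% of all genes tested passed (39.3% higher and 41.1% lower), and the members' median log2 fold change was -0.44 against -0.04 over all genes tested. Atf1 (log2 fold change 0.61, SE 0.07, adjusted p = 1.95e-09), Sik1 (log2 fold change 0.59, SE 0.20, adjusted p = 0.00787) and Crem (log2 fold change 0.49, SE 0.12, adjusted p = 0.00039) were higher with IL-2. The Sik1 value did not pass without the replicate block (0.57, adjusted p = 0.0817), without replicate 4 (0.52, adjusted p = 0.0506) or under upper quartile normalization (0.37, adjusted p = 0.0876) and total counts only (0.43, adjusted p = 0.0529), and its groups overlapped. Crtc3 had the lowest value (log2 fold change -0.95, SE 0.09, adjusted p = 1.44e-11), followed by Creb1 (log2 fold change -0.85, SE 0.10, adjusted p = 9.63e-10), Per1 (log2 fold change -0.71, SE 0.17, adjusted p = 0.000395), Crtc2 (log2 fold change -0.45, SE 0.10, adjusted p = 7.99e-05) and Sik3 (log2 fold change -0.44, SE 0.07, adjusted p = 2.79e-06). Apart from Sik1, the groups of these members did not overlap, as was so for 65.8% of all genes tested.

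At pH 7, 7 members passed the threshold, 2 higher and 5 lower, against 77.2% of all genes tested (37.6% higher and 39.5% lower). Atf1 was 0.56 higher on the log2 scale, Creb1 -0.57, Crtc3 -0.74, Per1 -0.55, Crtc2 -0.38 and Sik3 -0.37. The groups were free of overlap for 6 members and 64.5% of all genes tested. Crem, at 0.20, did not pass (adjusted p = 0.121), and Sik1, at 0.45, passed in the fit reported (adjusted p = 0.037) but in none of the fits without replicates 1, 2, 3 or 4, nor without the replicate block (0.38, adjusted p = 0.238). At pH 6.6 the values were small. Only Crtc3 (log2 fold change -0.27, SE 0.09, adjusted p = 0.0213) and Sik3 (log2 fold change -0.24, SE 0.07, adjusted p = 0.0161) passed, both lower with IL-2, against 23.7% of all genes tested (13.2% higher and 10.6% lower). The groups were free of overlap for 1 member and 11.9% of all genes tested. Neither Crtc3 nor Sik3 passed without the replicate block (adjusted p = 0.078 and 0.0591) or without replicate 1, 2 or 4, and Sik3 also missed without replicate 3, so that this count ranged from 0 to 2 as single replicates were left out. It was 6 in a fit to the groups compared alone. Of the genes that passed at pH 6.6, 55.5% were higher, against 65.5% under upper quartile normalization and 74.6% with total counts only. Atf1, which was higher with IL-2 than without it at pH 7.4 and pH 7, stood at -0.08 (SE 0.07) at pH 6.6. Creb1, which was lower with IL-2 than without it at pH 7.4 and pH 7, stood at -0.08 (SE 0.10) at pH 6.6.

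**Figure D3:**
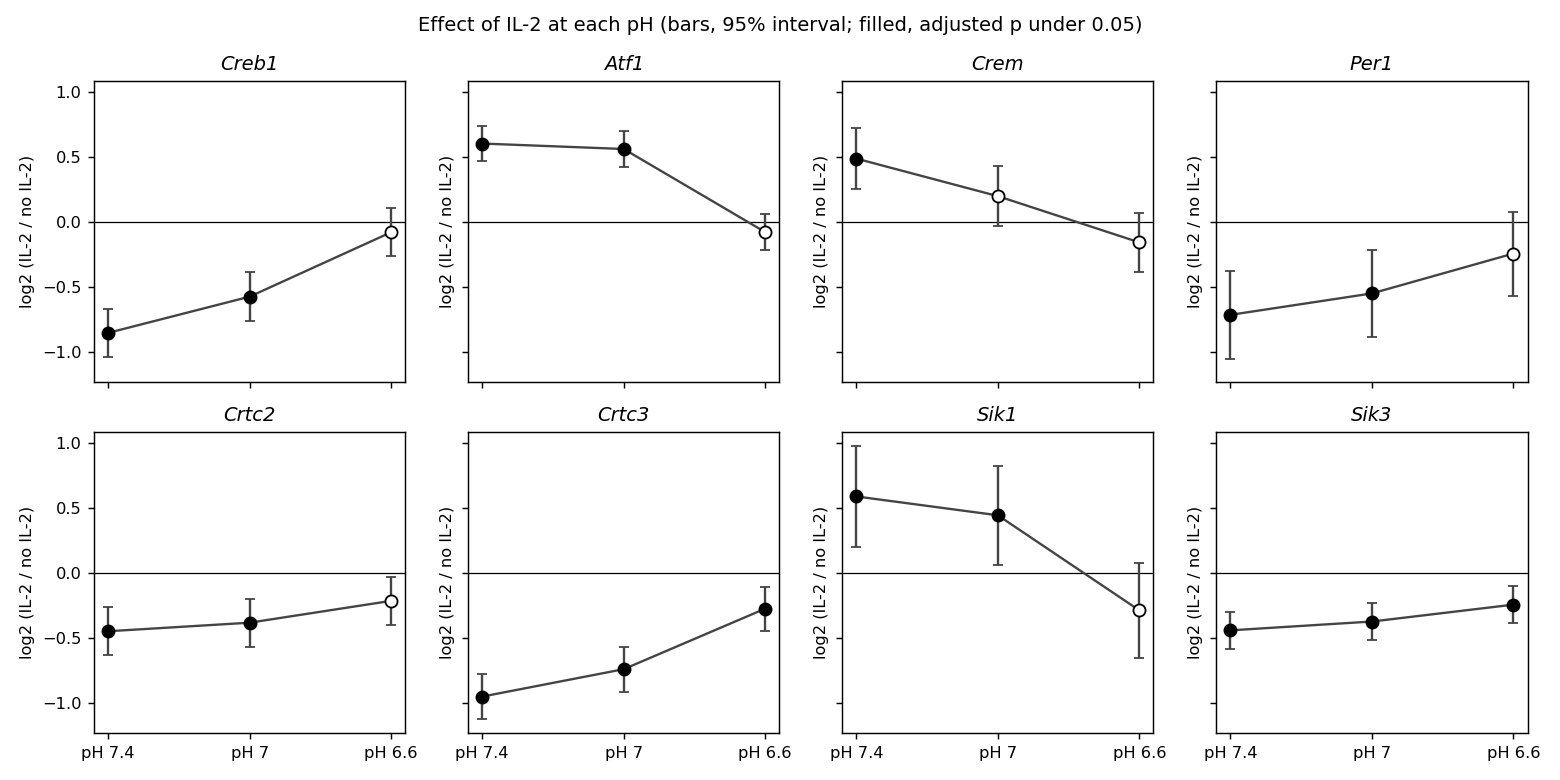
Log2 fold change of each member with IL-2 against without it (vertical axis) at pH 7.4, pH 7 and pH 6.6 (horizontal axis), where bars are 95% intervals (1.96 standard errors on each side) and filled points passed an adjusted p of 0.05. Values of Atf1, Creb1 and Crtc3 are far from 0 at pH 7.4 (0.61, -0.85 and -0.95) and nearer to 0 at pH 6.6 (-0.08, -0.08 and -0.27).

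Against the start of the experiment, the neutral cultures themselves had moved. In pH 7.4 + IL-2, 4 members passed against time 0, all lower, where 59.9% of all genes tested passed (29% higher and 30.9% lower, a split of 48.4% higher that became 33.3% under upper quartile normalization). The groups were free of overlap for 1 member, Crem, and for 32.1% of all genes tested. Crem had 62.1, 80.2, 89.0, 74.3 and 107 CPM at time 0, above every pH 7.4 + IL-2 library (log2 fold change -0.82, SE 0.12, adjusted p = 4.3e-07). Sik1 had 20.1, 40.7, 31.4, 24.6 and 19.3 CPM at time 0 with replicate 2 the highest and replicate 5 the lowest, and was lower after 24 h in 4 of 5 pairs (log2 fold change -0.68, SE 0.19, adjusted p = 0.00344, and an adjusted p of 0.083 without the replicate block). Crtc3 (log2 fold change -0.49, SE 0.09, adjusted p = 1.76e-05) and Per1 (log2 fold change -0.40, SE 0.17, adjusted p = 0.0476) were also lower, though Per1 lost the call in each fit without replicate 1, 2, 3 or 4 and stood at -0.21 (adjusted p = 0.269) without replicate 1. Creb1 (0.134, adjusted p = 0.231), Atf1 (0.055, adjusted p = 0.518), Crtc2 (0.045, adjusted p = 0.705) and Sik3 (0.169, adjusted p = 0.0512) did not pass. Creb1 passed without replicate 4 (0.258, adjusted p = 0.0113), and Sik3 under RLE normalization, under DESeq2 and without replicate 2 or 3. In pH 7.4 without IL-2, 7 members passed against time 0, 4 higher and 3 lower, against 75.2% of all genes tested (36.9% higher and 38.3% lower). The groups were free of overlap for 5 members and 51.2% of all genes tested. Crem and Sik1 were lower still (-1.31 and -1.27), Atf1 was lower (-0.55), and Creb1 (0.99), Sik3 (0.61), Crtc2 (0.49) and Crtc3 (0.46) were higher. Per1 did not pass (log2 fold change 0.32, SE 0.17, adjusted p = 0.0943), but stood at 0.57 (adjusted p = 0.00244) without replicate 1 and 0.48 (adjusted p = 0.0314) without replicate 2.

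The order of the 7 groups differed from member to member. For Per1, pH 6.6 (141 ± 19.1 CPM) and pH 6.6 + IL-2 (119 ± 22.6 CPM) came first with overlapping libraries. A gap without overlap separated them from pH 7 (43.8 ± 11.6 CPM), below which pH 7.4 (41.7 ± 8.94), time 0 (33.01 ± 10.3), pH 7 + IL-2 (29.5 ± 1.68) and pH 7.4 + IL-2 (25.4 ± 4.26) each overlapped with the next. For Crem the acidic groups overlapped with each other and pH 6.6 + IL-2 with time 0 (82.5 ± 16.7 CPM), and the break came between time 0 and pH 7.4 + IL-2. For Sik1 every group overlapped with its neighbour in the order, from pH 6.6 (59.4 ± 17.9 CPM) through pH 6.6 + IL-2, time 0, pH 7 + IL-2, pH 7 and pH 7.4 + IL-2 to pH 7.4 (12.1 ± 5.62 CPM). Creb1 ran from pH 7.4 (221 ± 23.3 CPM) and pH 7 down, after a break, to pH 6.6, pH 6.6 + IL-2, pH 7 + IL-2, pH 7.4 + IL-2 and time 0 (112 ± 16.95 CPM). Atf1 fell into a high set of pH 7.4 + IL-2, time 0 and pH 7 + IL-2 and, after a break, a low set of pH 6.6, pH 6.6 + IL-2, pH 7.4 and pH 7. Crtc2 had its break between the groups without IL-2 together with pH 6.6 + IL-2, which were higher, and the remaining 3. Crtc3 and Sik3 had none between neighbouring groups.

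Levels of different genes were compared per kilobase of exon. In pH 7.4 + IL-2, Atf1 had the highest level, at 30.9 ± 2.79 CPM per kilobase, ahead of Crtc2 (14.9 ± 1.01), Creb1 (8.92 ± 0.998), Crem (7.90 ± 1.02) and Sik3 (7.41 ± 0.422). Per1 (4.52 ± 0.756), Crtc3 (3.89 ± 0.622) and Sik1 (3.50 ± 1.05) were lowest. In pH 6.6 + IL-2 the level of Crtc2 was highest, at 24.3 ± 2.75 CPM per kilobase, and those of Per1 (21.2 ± 4.02), Atf1 (21.1 ± 1.10) and Crem (17.9 ± 4.18) came next, ahead of Creb1 (11.8 ± 1.37), Sik3 (11.2 ± 0.848), Sik1 (9.43 ± 2.38) and Crtc3 (6.53 ± 0.540). Per1 thus passed from the lower end of the set to a level like that of Atf1. The exon length is the union over annotated transcripts, so that isoforms used here may be shorter.

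The rest of the pathway was read from 6 lists, which were chosen with earlier results of these data known, so their counts and medians are a description. The counts stand against 35.4% of all genes tested called higher and 40.9% called lower at pH 6.6 with IL-2, and 31.6% and 35.4% without it. Of the CREB target genes, 28 of 32 were tested. In pH 6.6 + IL-2 against pH 7.4 + IL-2, 15 rose and 6 fell, with a median log2 fold change of 0.72, and without IL-2 18 rose and 2 fell, with a median of 0.67, against -0.07 and -0.03 over all genes tested. Nr4a1, an orphan nuclear receptor and early response gene, went from 1.35 ± 0.708 to 16.6 ± 5.44 CPM with IL-2 (log2 fold change 3.63, adjusted p = 1.67e-13) and from 1.12 ± 0.265 to 19.3 ± 4.37 CPM without it (4.07, adjusted p = 6.76e-14). Pde4b, which encodes a cAMP phosphodiesterase, went from 21.01 ± 3.86 to 149 ± 16.9 CPM with IL-2 (2.83) and from 88.9 ± 8.83 to 184 ± 23.8 CPM without it (1.05). Gadd45b, a stress-response gene, rose by 2.84 and 0.84 on the log2 scale. Ccna2, Gem and Ifng, named after their values were seen, went the other way with IL-2. Their means were 506, 158 and 23.3 CPM in pH 7.4 + IL-2 and 104, 42.8 and 4.09 CPM in pH 6.6 + IL-2. Other early response genes of the list, also named after their values were seen, differed from each other. In pH 7.4 + IL-2, Nr4a2, Nr4a3, Fos and Fosb had means of 7.09, 32.1, 17.6 and 13.98 CPM. In pH 6.6 + IL-2 the means were 27.3, 30.8, 19.7 and 5.60 CPM. Without IL-2, Fos and Fosb had means of 6.74 and 5.71 CPM at pH 7.4 and 5.90 and 2.35 CPM at pH 6.6. At pH 7 with IL-2, 5 list members rose and none fell, against 9.15% higher and 9.83% lower of all genes tested. At pH 7 without IL-2, 1 rose and 1 fell, against 1.36% higher and 0.318% lower.

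Of the circadian clock genes, 20 of 22 were tested. With IL-2, 14 rose and 4 fell at pH 6.6 (median 0.79), and without it 11 rose and 2 fell (median 0.38). The Per1 paralogs parted. Per3 rose from 2.80 ± 1.74 to 19.4 ± 5.22 CPM with IL-2 (log2 fold change 2.88, adjusted p = 1.17e-18), and by 0.39 without it. Per2, named here after its values were seen, fell with IL-2 from 9.30 ± 1.35 to 4.65 ± 1.66 CPM (-1.04, adjusted p = 6.19e-06) and rose without it, from 1.11 ± 0.574 to 1.88 ± 0.243 CPM (0.77, adjusted p = 0.0053). Nr1d2, which encodes the clock repressor REV-ERB beta, rose by 2.20 with IL-2 and 0.36 without it, and Rora, which encodes an activator at the same elements, by 2.09 with IL-2, while its value without IL-2 was 0.16 (adjusted p = 0.378). The libraries were taken at 0 h and 24 h only, which gives no account of a daily rhythm.

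All 10 CREB cofactors were tested, of which 6 rose and 2 fell with IL-2 (median 0.32) and 5 rose and 2 fell without it (median 0.18). Crebbp, which encodes CBP, rose from 57.6 ± 6.61 to 154 ± 9.23 CPM with IL-2 (log2 fold change 1.42, adjusted p = 1.77e-14) and by 0.50 without it. Ep300, which encodes p300, rose by 0.81 and 0.32. The acetyltransferase gene Kat2b rose by 0.84 with IL-2 and stood at -0.07 without it (adjusted p = 0.435). Crtc1, the third CRTC gene, was low and went from 15.3 ± 2.02 to 13.4 ± 1.78 CPM with IL-2 (-0.19, adjusted p = 0.211), and fell without it, from 25.5 ± 3.39 to 12.6 ± 1.16 CPM (-1.01, adjusted p = 8.36e-08).

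The list around SIKs and their upstream kinase LKB1 holds SIK substrates, 14-3-3 proteins and phosphatases, and all 23 genes were tested. With IL-2, 7 rose and 11 fell at pH 6.6 (median -0.12), and without it 15 rose and 4 fell (median 0.21). Sik2 rose from 22.9 ± 2.93 to 42.5 ± 5.53 CPM with IL-2 (log2 fold change 0.90, adjusted p = 3.07e-07) and by 0.52 without it, so that the 3 SIK genes were all higher at pH 6.6 in both settings. Hdac5, a class IIa histone deacetylase that SIKs phosphorylate, went from 17.3 ± 2.31 to 128 ± 23.1 CPM with IL-2 (2.88, adjusted p = 2.65e-17), and from 74.7 ± 7.90 to 171 ± 14.4 CPM without it (1.20). Hdac7 rose by 1.12 and 0.70. Ywhab, which encodes a 14-3-3 protein, fell from 378 ± 21.1 to 102 ± 5.85 CPM with IL-2 (-1.89, adjusted p = 4.23e-20) and from 215 ± 24.4 to 70.4 ± 8.34 CPM without it (-1.60). The other 5 genes for 14-3-3 proteins fell with IL-2, by 0.64 (Ywhaz) to 1.08 (Ywhag) on the log2 scale. Without IL-2, Ywhae rose from 212 ± 13.9 to 363 ± 22.9 CPM (0.77, adjusted p = 9.66e-11), Ywhah (0.22), Ywhaz (0.21) and Ywhaq (0.20) also rose, and Ywhag stood at 0.13 (adjusted p = 0.0682).

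Of the 16 kinases of the CREB list, all tested, 7 rose and 3 fell with IL-2 (median 0.13), and 6 rose and 6 fell without it (median -0.02). Camk4, a calcium-dependent CREB kinase of T cells, rose from 127 ± 6.88 to 261 ± 30.4 CPM with IL-2 (log2 fold change 1.04, adjusted p = 6.26e-10) and by 0.58 without it. Camk2g rose by 0.77 and 0.67. Akt1 fell with IL-2 (-1.02, adjusted p = 1.05e-10) and stood at -0.16 without it (adjusted p = 0.16). Of the CREB/ATF relatives and bZIP partners, 14 of 15 were tested, and 5 rose and 3 fell with IL-2 (median 0.08), while 5 rose and 2 fell without it (median 0.18). Creb3l2 rose by 1.72 with IL-2 and 1.03 without it, and Creb3 fell, at -0.89 and -0.70. Crebl2, a small relative of CREB, went like Creb1 in opposite directions, from 10.9 ± 1.76 to 35 ± 4.55 CPM with IL-2 (1.69, adjusted p = 9.59e-17) and from 61.6 ± 5.13 to 39.7 ± 5.86 CPM without it (-0.64, adjusted p = 2.12e-07). At pH 7 with IL-2, 3 of 20 clock genes rose, among them Per3 (0.96, adjusted p = 1.59e-05) and Nr1d2 (0.39, adjusted p = 0.0408). There 1 of 10 cofactors rose (Kat2b, 0.22) and 1 fell, 1 of 23 genes of the SIK list rose and 5 fell (Ywhab, -0.25, among them), 2 of 16 kinases rose, and 2 of 14 relatives rose (Crebl2, 0.50, adjusted p = 0.000469, among them) and 1 fell, against 9.15% higher and 9.83% lower of all genes tested. The values for Per3, Nr1d2 and Kat2b did not pass without the replicate block, nor did that of Ywhab under upper quartile normalization or with total counts only, and Kat2b, Nr1d2 and Ywhab also missed in some fits that left out a replicate. At pH 7 without IL-2, 0 genes of these 5 lists passed by the edgeR test or DESeq2, against 1.68% of all genes tested in edgeR. At an unadjusted p under 0.05 in edgeR there were 4, and neither count is in itself a result about these lists.

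**Figure D4:**
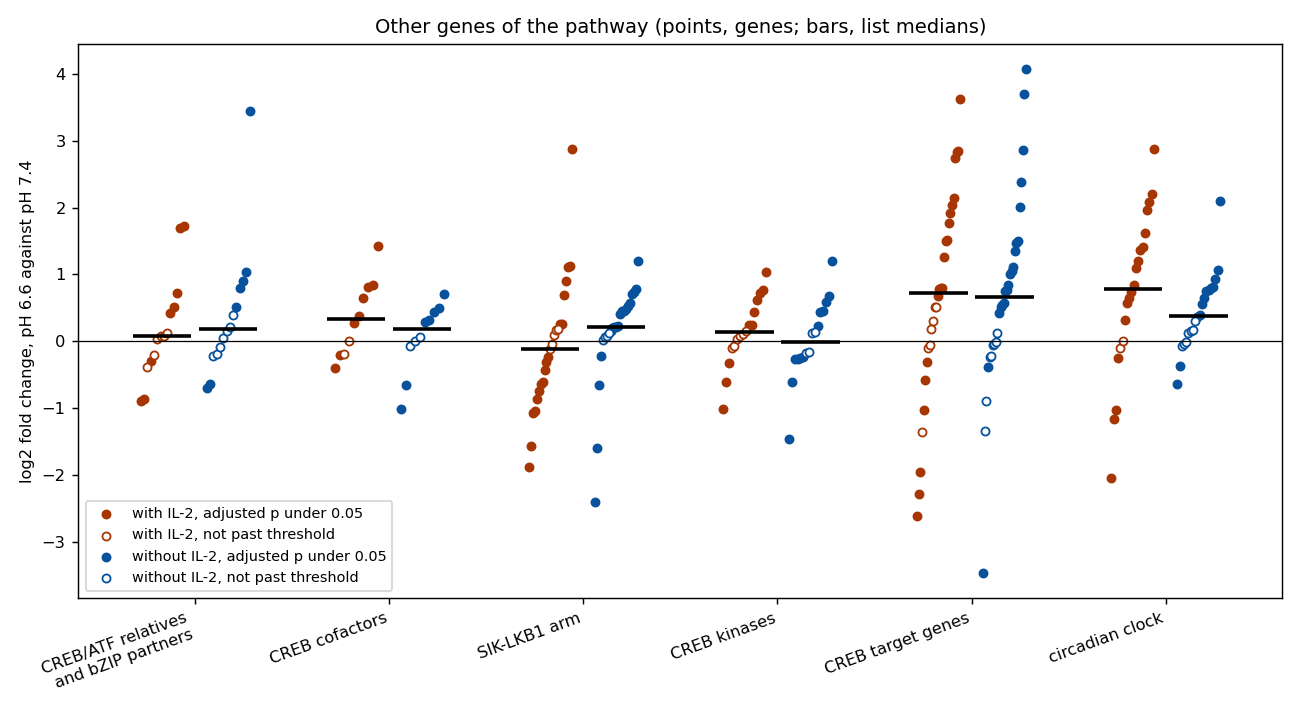
Log2 fold change at pH 6.6 against pH 7.4 (vertical axis) of the genes of 6 lists (horizontal axis), with IL-2 (orange) and without it (blue), where each point is a gene, filled points passed an adjusted p of 0.05 and bars are list medians. The CREB target genes have medians of 0.72 and 0.67 and the clock genes of 0.79 and 0.38, while the SIK list has medians of -0.12 and 0.21.

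As a description, the log2 CPM of the members was correlated over the 35 libraries, which share 7 groups and 5 replicate numbers, so the values follow the group differences above. Crtc2 went closely with Sik3 (Pearson r = 0.94) and with Per1 (0.92), and Sik3 with Per1 (0.83). Crem went with Sik1 (0.77), and Sik1 with Per1 (0.75). Creb1 and Atf1 ran in opposite directions (-0.75), as did Atf1 and Crtc3 (-0.79). Among 9007 genes whose log2 CPM averaged 3 or more, the patterns most like that of Crem were those of Fosl2 (0.96), Serpinb6b (0.95) and Dstn (0.94). For Sik1 they were Nfkbiz (0.91), Dusp1 (0.90), a phosphatase gene also on the CREB target list, and Bhlhe40 (0.89), a gene also on the clock list. For Per1 they included Slc25a28 and Klc1, at 0.96 each.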

How the data were processed

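Stranded poly(A) RNA-seq libraries (Illumina TruSeq) of 35 cultures were deposited by the authors as 1 table of raw read counts per gene and library, which carried Ensembl identifiers. The submitters' processing notes name cutadapt 1.8, STAR 2.5.2b, HTSeq 0.6.1 and the build GRCm38. Their settings, including strand, are not given in the sources used here. Alignments that were not unique were left out of genes by the counting, which could lower genes with near copies. They made up a median of 37.1% of a library's total in the table, a share that need not equal the share of reads. Identifiers were paired with symbols through GENCODE M21 (48349 of 48709), and rows that name no gene (a median of 7.42% with no feature and 0.922% ambiguous) stayed out of library sizes. The share with no feature ranged over 3.91 to 5.18% in pH 7.4 + IL-2 and 7.335 to 8.83% in pH 6.6 + IL-2. Without IL-2 it ranged over 7.70 to 10.2% at pH 7.4 and 6.47 to 9.19% at pH 6.6. Alignments that were not unique made up 39.3 to 48.3% at time 0 and 32.8 to 37.1% in pH 7.4. The part of these in the results was not tested.

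The deposited counts were analysed with edgeR 4.0.16 (R 4.3.3, limma 3.58.1) by TMM scaling, a minimum count of 10 in filterByExpr, and a robust quasi-likelihood fit of the 7 groups with the replicate number as a block, over 13819 genes and all 35 libraries (common biological coefficient of variation 0.12). Benjamini-Hochberg adjusted p-values under 0.05 were called, in 11 contrasts, and an interaction is the difference between 2 contrasts. Log2 CPM used a prior count of 2. The block follows the paired tests of the study. Deviations from the group means correlated by more than 0.1 in 95 of 105 same-numbered pairs of libraries (0.198 to 0.416 in the 5 pairs of pH 6.6 + IL-2 and pH 7.4 + IL-2), against a median of -0.075 between different numbers. Deviations cancel within a group, so positive values for the same numbers draw those between different numbers negative. The median of -0.075 is therefore no separate evidence for the block. The 5 replicates are biological per the labels, and no 2 libraries of a group agreed within counting noise. Intervals in the text are 1.96 SE. Precision at these counts is set by the spread between libraries more than by depth.

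Alternatives were RLE, upper quartile and total count scaling, DESeq2 1.42.0, filters of at least 1 count in any library or 10 in every library, a fit to the compared groups alone, no replicate block, and leaving out each of the 5 replicates. The steps across all genes were run on simulated data in which few genes changed, in a single group, and no replicate effect was put in. That setting differs from these data, so it does not test the scaling or the replicate block here.

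The members and the lists of CREB targets, cofactors, SIK partners, kinases, relatives, clock genes and cell markers were chosen with earlier results of these data known. From each pathway list the 3 genes with the largest absolute change at pH 6.6 with IL-2 were named, among called genes whose log2 CPM averaged 1 or more and whose sign agreed in all 5 pairs, plus Crtc1 and Sik2. Per2, Ccna2, Gem, Ifng, Nr4a2, Nr4a3, Fos and Fosb were added later. For Crem, Sik1 and Per1 the 3 genes of most similar pattern were to be named, and some items that the rules would name are not reported here.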

Additional observations from a re-analysis of the deposited data

Results flagged for a closer look

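The change from pH 7.4 to pH 6.6 differed with and without IL-2 for 5 members by the interaction term of the edgeR fit, and the log2 differences (with IL-2 minus without) were 0.775 for Creb1, 0.677 for Crtc3, -0.645 for Crem, -0.682 for Atf1 and -0.878 for Sik1, each in 5 of 5 replicates. For Creb1, and for Crebl2 and Per2 below, the change itself was called in opposite directions. Among the pathway genes named by the rules above, with Per2, the difference was positive for Per3 (2.48), Crebl2 (2.33), Gadd45b (2.002), Rora (1.93), Nr1d2 (1.84), Pde4b (1.78), Hdac5 (1.68), Crebbp (0.929), Kat2b (0.909), Crtc1 (0.827), Creb3l2 (0.69), Ep300 (0.486), Camk4 (0.454) and Hdac7 (0.426). It was negative for Per2 (-1.81), Akt1 (-0.855) and Ywhab (-0.285). Of all genes tested, 67.0% passed this interaction.

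A single library stood apart from the other 4 of its group in 3 of the 56 sets of 5 libraries examined, where chance alone gives about 1 in 20. All lay in the pH 6.6 group without IL-2. Creb1 was low in replicate 4 (log2 CPM 7.123, against a group median of 7.452). In replicate 1, Crtc2 was low (6.645, median 6.878) and Crtc3 was high (6.379, median 6.255).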

How the results depend on the processing

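Of 1144 alternative values of single members, 1055 kept their direction and their side of the threshold, 36 lost a call, 35 gained one and 18 changed sign. At pH 6.6 against pH 7.4 with IL-2, all 8 members were called under every alternative run. Scaling moved the median of all genes by over 0.1 in several contrasts, by 0.137 in this one under upper quartile normalization, by -0.119 at pH 6.6 without IL-2 (-0.153 with total counts only), by 0.257 (0.227) in the interaction at pH 6.6, by -0.224 (-0.158) and -0.187 (-0.118) for IL-2 at pH 7.4 and pH 7, and by -0.154 for pH 7.4 + IL-2 against time 0.

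Only the largest moves in the counts of members and of all genes called are given in full here. At pH 7 with IL-2, 0 became 2 in the fit to the groups compared alone and ranged from 0 to 1 as each replicate was left out, the 1 being Sik1 without replicate 5, and without IL-2 0 became 1 in the groups alone. For IL-2 at pH 6.6, 2 became 1 under upper quartile normalization and with no filter beyond 1 count, 0 with total counts only and without the replicate block, 6 in the groups alone, and 0 to 2 leaving out a replicate (0 without replicate 1, 2 or 4). In the interaction at pH 6.6, 5 became 8 under upper quartile normalization and with total counts only, and ranged from 5 to 8 leaving out a replicate (8 without replicate 1). For pH 7.4 + IL-2 against time 0, 4 became 2 without the replicate block, 5 by DESeq2 and 3 to 4 leaving out a replicate. Leaving out a replicate also gave 6 to 7 at pH 6.6 without IL-2 (6 reported), where DESeq2 called 7. It gave 7 to 8 for IL-2 at pH 7.4 (8 reported) and 6 to 7 for IL-2 at pH 7 (7 reported). For pH 7.4 without IL-2 against time 0 it gave 7 to 8 (7 reported). In the interaction at pH 6.6, Sik3 and Per1 also passed with at least 10 counts in every library and in the groups alone. Counts of all genes called moved at pH 7 with IL-2 (2623; 1660 without the block, 4388 in the groups alone, 1283 to 2425 leaving out a replicate), at pH 7 without IL-2 (232; 56, 942 and 35 to 332), for IL-2 at pH 6.6 (3278; 5369 in the groups alone and 2119 to 2630 leaving out a replicate) and for the interaction at pH 7 (662; 177 without the block, 1632 in the groups alone, 326 with no filter, 1016 by DESeq2 and 98 to 711 leaving out a replicate). The cause was not tested. Without the block Sik1 lost its calls for IL-2 at pH 7.4 and pH 7 and for the interaction at pH 6.6, Crtc3 and Sik3 lost theirs for IL-2 at pH 6.6, Sik1 and Per1 lost theirs against time 0, and no other call of a member changed.

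The changes of sign were all of values that were not called. At pH 6.6 without IL-2, Atf1 was -0.017 with total counts only, and Crtc3 was -0.047 under upper quartile normalization and -0.081 with total counts only. At pH 7 without IL-2, Crtc2 was 0.006 with total counts only and ranged from -0.035 to 0.015 leaving out a replicate, Crtc3 from -0.075 to 0.023 and Sik3 from -0.003 to 0.066. Crtc2 ranged from -0.011 to 0.118 at pH 7 with IL-2, and from -0.027 to 0.153 in the interaction at pH 7. Against time 0 in pH 7.4 + IL-2, under upper quartile normalization and with total counts only, Creb1 was -0.021 (upper quartile), Atf1 -0.10 and -0.009, and Crtc2 -0.11 and -0.022, and leaving out a replicate Atf1 ranged from -0.045 to 0.142 and Crtc2 from -0.04 to 0.115.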
